A study of Homo sapiens with 6 samples.

Results

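The IL-1 family of cytokines and its receptors were examined in BT-549 cells after silencing of NEAT1. NEAT1 is a nuclear long noncoding RNA whose long isoform scaffolds the bodies called paraspeckles. The 10 genes are the ligands IL1A, IL1B, IL18 and IL33, the receptor antagonist IL1RN, the receptor chains IL1R1, IL1RL1 and IL1RAP, and the kinases IRAK1 and IRAK2. They were chosen by symbol, with earlier results of these data known. All 10 have a row among the 25545 genes of the deposited expression table. BT-549 cells are a long-established line of triple-negative breast cancer (TNBC). The cells of one group of 3 libraries received a control siRNA (CsiRNA) and the other group of 3 an siRNA against NEAT1 (NEAT1siRNA), both harvested 48 h after transfection. All cells were grown in RPMI1640 with serum and insulin, and no IL-1 or other stimulus is named for either group. The sample titles also carry the prefix tet, which the labels do not explain. The comparison rests on a single line and on transient silencing by a single siRNA product, as the study's methods give it. The labels say that cells were cultured in triplicates and do not say whether these were separate experiments, so the p-values measure the spread between these libraries, which may be technical.

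IL-1α and IL-1β bind the receptor IL-1R1, which then recruits the accessory chain IL-1RAP, and only this pair of chains signals. The same accessory chain serves the IL-33 receptor (IL1RL1, also called ST2) and the IL-36 receptor. Inside the cell the adaptor MYD88 brings in the IRAK kinases, which pass the signal through TRAF6 and TAK1 to NF-κB and the MAP kinases, and epithelial and stromal tumor cells respond with neutrophil-attracting chemokines and IL-6. IL1RN occupies IL-1R1 without recruiting the accessory chain.

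Levels are given as TPM (a transcript abundance, reads scaled by gene length and by library). Different genes can be set side by side only as far as the gene lengths used hold, and these are not given. Differences are log2 fold changes of NEAT1siRNA over CsiRNA on the scale of log2(TPM + 1), where the change of weakly expressed genes appears smaller than it is. They come from limma fitted on the 10721 genes whose TPM averaged 1 or more over the libraries, and a gene was called where the p-value adjusted by the Benjamini-Hochberg method over all those genes was under 0.05. In this fit 14.0% of genes were called, 4.99% as higher and 8.98% as lower after NEAT1 silencing, which is 535 higher and 963 lower genes. That split depended on scaling, with 1158 higher and 954 lower genes after centring each library on its median, and 1082 higher and 1109 lower after quantile normalization. The 3 NEAT1siRNA values lay wholly outside the CsiRNA range for 30.3% of genes. Recovered reads numbered 17245839 to 20343010 per CsiRNA library and 15787661 to 20180092 per NEAT1siRNA library. In every library 4 short noncoding RNAs (RN7SK, RN7SL1, RN7SL2 and RPPH1) took 64.4% to 68.1% of the TPM. This is not their share of reads, and RN7SK, the highest of them in reads, had about 343956 to 506063 recovered reads per library. RN7SL1 and RN7SL2 were called higher after silencing, while RN7SK and RPPH1 each had a log2 fold change of -0.14 and were not called. The share of all 4 was 64.4%, 65.6% and 67.7% with CsiRNA and 66.9%, 64.9% and 68.1% with NEAT1siRNA. Levels of the other genes are thus relative to a remainder that differed between libraries, with overlap between the groups.

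NEAT1 itself fell. Its level was 13.4, 7.68 and 10.8 TPM in the CsiRNA libraries and 4.36, 2.96 and 2.73 TPM in the NEAT1siRNA libraries, without overlap, a log2 fold change of -1.41 ± 0.14 (SE, n = 3 per group, limma adjusted p = 1.21e-07). This value per gene does not separate the short isoform from the long one that scaffolds paraspeckles. Of 4 mesenchymal genes expected in this line, VIM stood at 859 to 1112 TPM over the 6 libraries and ZEB1 at 13.5 to 17.3 TPM, neither of them called. CDH2 fell (log2 fold change -0.34, limma adjusted p = 0.0186), as did FN1 (-0.47, limma adjusted p = 0.00116), both without overlap and both still expressed, at no less than 76 and 56.3 TPM. The estrogen receptor gene ESR1 was listed at 0 in each, and the highest value of the epithelial gene CDH1 was 0.168 TPM. ERBB2 was not absent, at 5.76 to 6.36 TPM. Of other cell types that make IL-1, 8 myeloid markers summed to 24.7 to 29.5 TPM with CsiRNA and 23.5 to 24.7 TPM with NEAT1siRNA, nearly all of it the lysosomal gene CD68. Without CD68 the sum was 0.17 to 0.365 TPM and 0.185 to 0.558 TPM, respectively, FCGR3A was at 0 in every library, and the lymphoid markers CD3E and NKG7 were also at 0 in every library. Of 3 mast cell markers, KIT was above 0 in 1 library at 0.0167 TPM, TPSAB1 was at 0 in all, and CPA3 ran from 0.67 to 0.727 TPM with CsiRNA and from 0.785 to 1.25 TPM with NEAT1siRNA. The part of these markers in the results was not tested.

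The family fell into expressed and near-silent members, and the expressed ones were mainly receptor chains and kinases. IRAK1, IL1RAP, IL1R1 and IRAK2 passed the filter of a mean TPM of 1. IL1B came close to it, at a mean of 0.633 TPM. IL1A, IL1RN, IL18, IL33 and IL1RL1 together gave 3 reads in the 6 libraries. The cells therefore carried RNA for both chains of the IL-1 receptor and for its proximal kinases, with little RNA for the ligands among the members.

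Promoter sequences are shown because the members vary in base composition there and in whether they hold an AP-1 word. RefSeq promoter windows on GRCh38 run from 250 bases before to 50 after each annotated start, and the table used here gave 17 windows for 9 of the 10 members. The stretches below span 15 bases on either side of the start for the 4 members whose groups did not overlap in level, which are described further on, with transcribed bases in capitals. IL1R1 has 4 annotated starts, of which the one with the highest GC content is shown, and which of them BT-549 cells use was not tested.
IL1RAP, chr3:190514070-190514099, plus strand: cggcggaaagtaagaGGCTCACTGGGGAAG
IL1R1, chr2:102142731-102142760, plus strand: agagccgcgcccggcAGTTCCCGGCCGCGA
IRAK2, chr3:10164904-10164933, plus strand: cgcagtgtccgacccAGTCGTCCCGCGCCG
IL1B, chr2:112836765-112836794, minus strand: gagaaactggcagatACCAAACCTCTTCGA

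The whole windows of IRAK1, IL1RAP and IRAK2 held 83%, 73.7% and 72% G or C, and those of IL1R1 held 44.3% to 77.7%. Among the near-silent members, GC content was 39.7% and 41.3% for IL1A, 39% and 42.3% for IL33, 35% and 35.7% for IL1RL1, and 45%, 49.7% and 59% for the 3 windows of IL1RN. The window of IL1B held 42.3%. The median of all 35116 windows was 58.7%, so the ranges overlapped, with 1 IL1RN window above that median and 3 of the 4 IL1R1 windows below it. IL18 had no window in the table.

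AP-1 and NF-κB are transcription factors downstream of the IL-1 receptor. The AP-1 word TGANTCA, read on either strand, was found in windows of IL1A, IL1RN, IL1RL1 and IRAK1 and in none of IL1R1, IL1RAP, IRAK2 or IL1B, and 9.37% of all genes hold it. The kappaB consensus and the MYC-type E-box CACGTG matched none of the 17 windows, against 7.09% and 8.77% of all genes. A match describes letters and not a bound site, and no match says nothing of sequence outside the window. The AP-1 words of IL1A, the ligand with the most of them, and of IRAK1, the most abundant member, are in capitals here.
IL1A, chr2:112784487-112784516, minus strand: gcgaagaagacTGACTCAggcttaagctgc
IL1A, chr2:112784437-112784466, minus strand: tcattggcgttTGAGTCAgcaaaggtattg
IRAK1, chrX:154019885-154019914, minus strand: cgaaggggaagTGAGTCAgtgtccgcggac

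IL1R1, the chain that binds IL-1α and IL-1β, rose after NEAT1 silencing. Its level was 21.0, 20.4 and 20.0 TPM in the CsiRNA libraries and 28.4, 33.5 and 29.3 TPM in the NEAT1siRNA libraries. The CsiRNA values were tight and every NEAT1siRNA value lay above them. The group means were 20.5 ± 0.504 and 30.4 ± 2.72 TPM (SD, n = 3 each), so the silenced cells held 148% of the CsiRNA mean. The log2 fold change was 0.54 ± 0.09 (SE, limma adjusted p = 0.000231). IL1R1 is on chr2:102064544-102179874, plus strand (GRCh38, GENCODE), in a cluster with other receptor genes of the family. The gene shares 11 exonic bases with the antisense gene IL1R1-AS1, or 0.154% of its exonic length, and the libraries were stranded, although the strand setting of the counting is not given in the sources used here.

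IL1RAP, the accessory chain without which bound IL-1R1 does not signal, fell. Its level was 40.7, 40.0 and 34.7 TPM with CsiRNA and 18.6, 23.9 and 19.2 TPM with NEAT1siRNA. The lowest CsiRNA library was still above the highest NEAT1siRNA library. The means were 38.5 ± 3.25 and 20.6 ± 2.91 TPM (SD, n = 3 each), which leaves 53.5% of the CsiRNA mean. The log2 fold change was -0.88 ± 0.10 (SE, limma adjusted p = 1.45e-06), the largest in size among the tested members. The gene spans chr3:190514051-190659750, plus strand, and shares no exonic base with another gene of the annotation. In these bulk libraries, fewer cells that express a gene and less RNA per cell cannot be told apart, for IL1RAP as for every gene here.

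**Figure D1:**
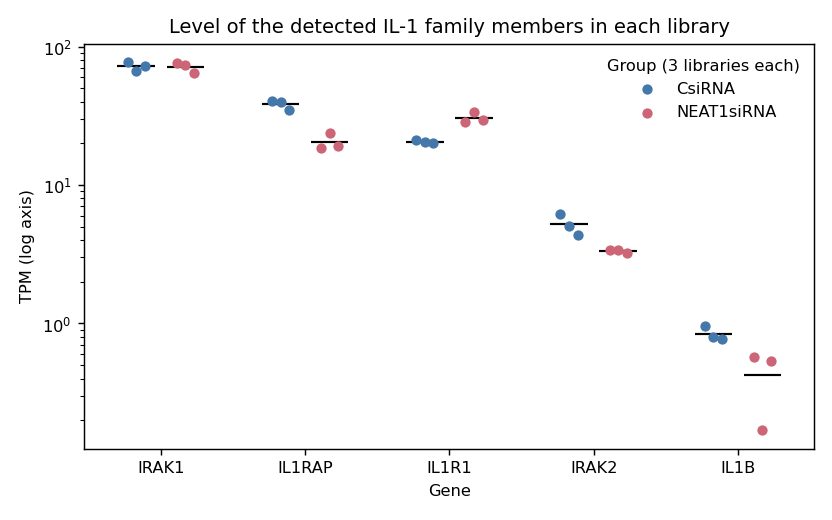
TPM on a log axis for the 5 members above trace level, 1 point per library and a bar at the mean of each group of 3. IL1RAP, IRAK2 and IL1B have all NEAT1siRNA points under the CsiRNA points, IL1R1 has them above, and the IRAK1 points overlap. IL1A, IL1RN, IL18, IL33 and IL1RL1, at 0 in at least 5 of 6 libraries, are not drawn.

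Because the RNA levels of the chains moved in opposite directions, the order of these levels reversed. RNA per gene was measured here, and not receptor protein, and which chain is higher within a library depends on the gene lengths used for TPM. With CsiRNA the level of IL1RAP was above that of IL1R1 in each library, and with NEAT1siRNA it was below in each. The ratio of IL1R1 TPM to IL1RAP TPM was 0.516, 0.51 and 0.576 in the CsiRNA libraries and 1.52, 1.4 and 1.52 in the NEAT1siRNA libraries. The mean ratio was 0.534 ± 0.0362 and 1.48 ± 0.0723 (SD, n = 3 each), a 2.78-fold difference or 1.47 on the log2 scale. An exact two-sided permutation test gave p = 0.1, the smallest value that 3 libraries against 3 allow. Neither chain's groups overlapped and the chains moved in opposite directions, so the ratios had to separate. The test could therefore give no other value, and it adds nothing to the values of each chain. A ratio within a library does not depend on how that library was scaled, so the short noncoding RNAs do not enter it.

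**Figure D2:**
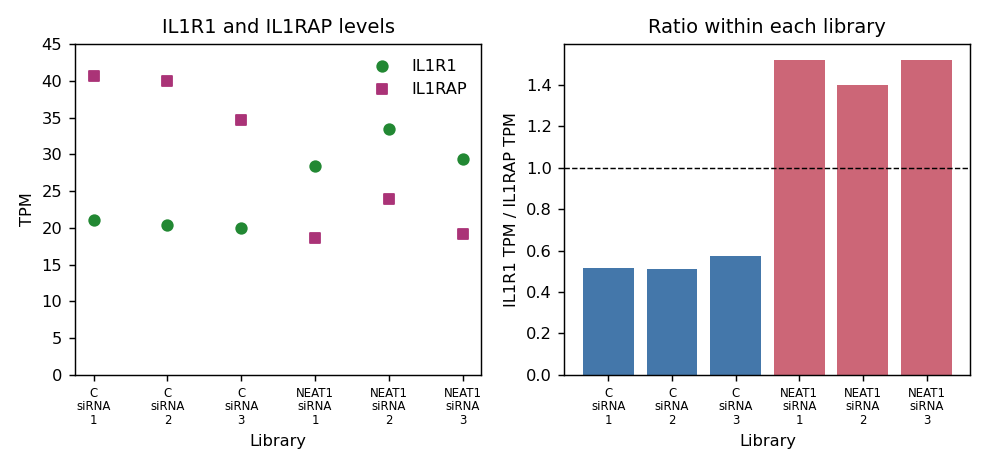
Left, TPM of IL1R1 (circles) and IL1RAP (squares) in each library. Right, the ratio of IL1R1 to IL1RAP TPM in each library, with a dashed line at 1, where the levels are equal. The 3 CsiRNA ratios lie between 0.51 and 0.576 and the 3 NEAT1siRNA ratios between 1.4 and 1.52.

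IL1RL1, the ligand-binding chain for IL-33, was listed at 0 in every library, with 0 reads in 109462262, which allows a level of up to 0.0274 reads in each 1000000 over all libraries. IL1RAP was therefore the only receptor chain besides IL1R1, of the 3 examined as members, with RNA above trace level.

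The kinases differed from each other. IRAK2, which acts in the sustained phase of the signal, fell from 6.18, 5.06 and 4.36 TPM with CsiRNA to 3.40, 3.38 and 3.21 TPM with NEAT1siRNA. The CsiRNA libraries were spread, and the NEAT1siRNA libraries were close together and all lower. The means were 5.2 ± 0.918 and 3.33 ± 0.104 TPM (SD, n = 3 each), which leaves 64.1%. The log2 fold change was -0.51 ± 0.10 (SE, limma adjusted p = 0.0016). These values rest on about 222 to 424 recovered reads per library. The call was lost when genes of all levels were tested (adjusted p = 0.0804).

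IRAK1, an early kinase of the same complex and the most abundant member, showed no detectable difference. Its level was 76.8, 66.9 and 72.4 TPM with CsiRNA and 75.5, 73.2 and 64.8 TPM with NEAT1siRNA, and the groups overlapped. The means were 72 ± 4.96 and 71.2 ± 5.67 TPM (SD, n = 3 each), and the log2 fold change of -0.02 ± 0.09 (SE, limma adjusted p = 0.93) had a 95% interval from -0.21 to 0.17. A change of the size of that of IRAK2 lies outside this interval. The ratio of IRAK2 to IRAK1 TPM was 0.0805, 0.0757 and 0.0602 with CsiRNA and 0.045, 0.0462 and 0.0496 with NEAT1siRNA, so it was lower in each silenced library, by -0.61 on the log2 scale (exact two-sided permutation p = 0.1, the smallest possible).

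**Figure D3:**
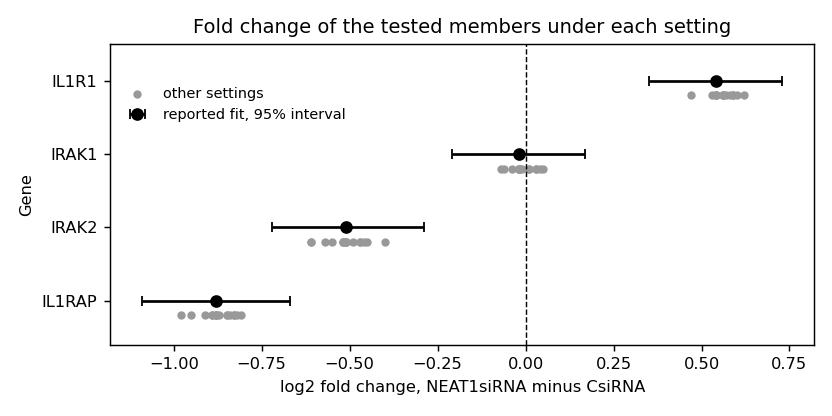
Log2 fold change, NEAT1siRNA over CsiRNA, of the 4 tested members. Black points with bars are the reported fit with its 95% interval, and grey points are the other scalings, filters, models and left-out libraries. IL1R1 stays between 0.47 and 0.62 and IL1RAP between -0.98 and -0.81, IRAK2 stays under 0 throughout, and IRAK1 lies on either side of 0.

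Of the 5 ligand and antagonist genes among the members, IL1B alone had more than a single read. Its level was 0.957, 0.794 and 0.776 TPM with CsiRNA and 0.569, 0.169 and 0.533 TPM with NEAT1siRNA, and the groups did not overlap. Behind them stood 25, 21 and 25 recovered reads with CsiRNA and 16, 5 and 14 with NEAT1siRNA, which is 71 reads against 35. The mean fell short of the filter of 1 TPM, so IL1B has no value in the main fit. On log2(TPM + 1) without a filter the difference was -0.38 ± 0.12 (SE, limma adjusted p = 0.148). A voom fit of limma on recovered reads gave -1.13 ± 0.39 (SE, adjusted p = 0.0479), in a fit that called 9.75% of 13518 genes lower and 10.7% higher. This call rested on single libraries. Without NEAT1siRNA replicate 2, the one with 5 reads, the value was -0.49 (adjusted p = 0.296). It was also lost without CsiRNA replicate 1, 2 or 3 (adjusted p = 0.127, 0.0627 and 0.0685) or NEAT1siRNA replicate 3 (adjusted p = 0.0501), and was kept only without NEAT1siRNA replicate 1 (adjusted p = 0.0185). A lower IL1B level was thus seen in all 3 silenced libraries, but at this depth its test did not hold against the loss of 1 library.

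**Figure D4:**
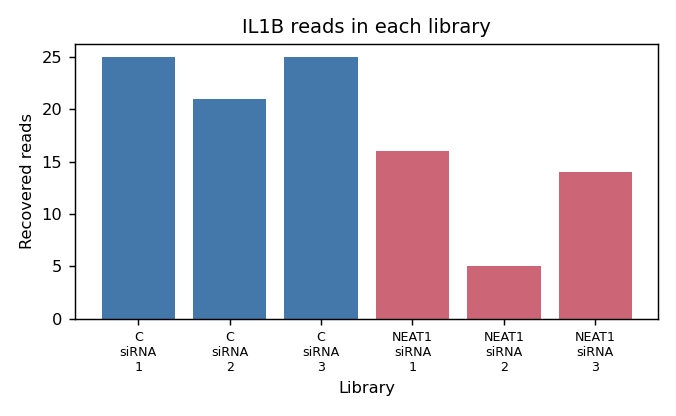
Recovered reads of IL1B in each library, as bars from 0. The CsiRNA libraries hold 25, 21 and 25 reads and the NEAT1siRNA libraries 16, 5 and 14.

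The other ligands were at the limit of detection in both groups. IL1A, which is active without processing, had 1 read in CsiRNA replicate 1 (0.0175 TPM) and 0 elsewhere. IL1RN had 1 read in the same library (0.0254 TPM) and 0 elsewhere. IL18, a ligand released by the inflammasome, had 1 read in CsiRNA replicate 3 (0.0437 TPM) and 0 elsewhere. The alarmin IL33 had 0 reads in all 6. A count of 0 allows up to 0.147 to 0.19 reads in each 1000000 of a single library, counting error only, so neither presence nor a difference could be read for these genes.

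By level, the order in CsiRNA cells was IRAK1, IL1RAP, IL1R1, IRAK2 and IL1B. In NEAT1siRNA cells it was IRAK1, IL1R1, IL1RAP, IRAK2 and IL1B. In both groups each of these was above the next in every library, and the remaining 5 genes could not be ordered. Of the 4 tested members, 1 was called higher and 2 lower, beside the 14.0% of all genes called. The same 3 had groups that did not overlap, beside 30.3% of all genes. As the members were chosen with earlier results of these data known, these counts are not independent evidence about the family.

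By the Pearson correlation of log2(TPM + 1) over the 6 libraries, the genes most like IL1RAP were WDR77 (r = 0.999), SECISBP2 (r = 0.999) and NT5E (r = 0.998). Those most like IL1B were PQLC2 (r = 0.992), ARF4-AS1 (r = 0.98) and ANKS1A (r = 0.98). With 6 points in 2 groups that differ, such values describe shared group differences and library effects and carry no test.

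Of 58 further pathway genes, 33 were tested, 2 were called higher and 1 lower, beside the 14.0% of all genes called, 4.99% higher and 8.98% lower. Their median log2 fold change was 0.05 beside -0.04 for all genes tested. The count depended on scaling, with 5 higher and 1 lower after quantile normalization or median centring, and 6 higher and 2 lower of 41 tested by voom. None of the 6 other ligands (IL36A, IL36B, IL36G, IL36RN, IL37 and IL1F10) passed the filter, and the highest of their mean levels was 0.157 TPM. Of 8 other receptors and soluble or inhibitory proteins, SIGIRR, an inhibitory receptor, was the only one tested, at 2.62, 2.88 and 3.42 TPM with CsiRNA and 3.23, 3.95 and 3.66 TPM with NEAT1siRNA. Its groups overlapped and it was not called (log2 fold change 0.22 ± 0.10, SE, limma adjusted p = 0.161). The decoy receptor IL1R2, which neighbors IL1R1 on the chromosome, stayed at 0.0532 to 0.196 TPM over all libraries, and IL18BP, which binds IL-18, at 0.493 to 1.06 TPM.

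Among 18 genes of IL-1 processing and release, 10 were tested, and limma called 2 of them, both higher, beside 4.99% of all genes called higher. NINJ1, which ruptures the plasma membrane in lytic cell death, rose from 11.9, 12.4 and 12.0 TPM to 21.7, 25.3 and 22.1 TPM. Every silenced library was well above the CsiRNA libraries, with a log2 fold change of 0.87 ± 0.09 (SE, limma adjusted p = 3.63e-07). S100A13, a partner of IL-1α in unconventional secretion, rose from 5.78, 5.34 and 4.96 TPM to 7.11, 7.29 and 6.86 TPM, a log2 fold change of 0.35 ± 0.09 (SE, limma adjusted p = 0.013). That call was lost without CsiRNA replicate 3 (adjusted p = 0.0698) and without a filter on TPM (adjusted p = 0.0706). RNA of inflammasome components varied in level. CASP1, the protease that matures IL-1β and IL-18, did not exceed 0.276 TPM, the sensor NLRP3 did not exceed 0.0441 TPM and the adaptor PYCARD did not exceed 0.19 TPM. The sensor CARD8, at 3.51 to 4.37 TPM, and CASP4, the caspase of the noncanonical inflammasome, at 7.69 to 8.81 TPM, were expressed and not called. The pore protein GSDMD was expressed at 1.38 to 1.57 TPM without a call.

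Of 26 signalling genes, 22 were tested, and limma called 1 of them, as lower, beside 8.98% of all genes called lower. MAP2K6, a kinase that activates p38, was under the filter and is named after its values were seen, and by voom on recovered reads it was higher (log2 fold change 2.13, adjusted p = 6.77e-07). The gene called lower was MAP2K3, which also activates p38, at 18.8, 17.8 and 18.6 TPM with CsiRNA and 16.1, 14.3 and 14.3 TPM with NEAT1siRNA (log2 fold change -0.29 ± 0.09, SE, limma adjusted p = 0.0339). The groups did not overlap, but the call was lost without a filter (adjusted p = 0.0774), and without CsiRNA replicate 1, 2 or 3 (adjusted p = 0.122, 0.0762 and 0.0741) or NEAT1siRNA replicate 3 (adjusted p = 0.138). The adaptor MYD88 stood at 11.9 to 12.3 TPM with CsiRNA and 12.7 to 14.5 TPM with NEAT1siRNA (adjusted p = 0.242). The kinase IRAK4, at 5.51 to 6.77 TPM over all libraries, and TRAF6, at 1.33 to 2.07 TPM, were not called either. IRAK3, an inhibitory member of the kinase family, did not exceed 0.0152 TPM.

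Among genes known to respond to IL-1, most calls were lower. Of 29 such genes 22 were tested, of which 12 were called lower, 2 higher and 8 neither, with a median log2 fold change of -0.41 beside -0.04 for all genes. For comparison, 8.98% of all genes were called lower. The higher calls numbered 4 after quantile normalization, median centring or rescaling without the short noncoding RNAs, with 12 lower in each, and voom gave 5 higher and 14 lower of 24 tested. Many of these genes also answer other stimuli such as TNF, and the list was written with results of these libraries known, so its direction is not independent evidence. CXCL8, a chemokine for neutrophils, was at 51.2, 51.4 and 41.4 TPM with CsiRNA and at 15.5, 25.7 and 17.0 TPM with NEAT1siRNA (log2 fold change -1.29 ± 0.13, SE, limma adjusted p = 1.21e-07). CXCL1, of the same kind, went from 240, 235 and 224 TPM to 121, 130 and 115 TPM (log2 fold change -0.93 ± 0.09, SE, limma adjusted p = 3.46e-08). Neither gene's groups overlapped. The cytokine LIF went from 8.67, 7.91 and 9.29 TPM to 4.12, 3.6 and 3.11 TPM (log2 fold change -1.06 ± 0.10, SE, limma adjusted p = 5.75e-08), and CXCL2 fell by 0.82 on the log2 scale (limma adjusted p = 1.74e-06). The 2 that rose, named after their values were seen, were PTGES, a prostaglandin E synthase (0.37, limma adjusted p = 0.0167), and BCL3, a nuclear IκB-like protein (0.44, limma adjusted p = 0.00409). Neither call held without a filter (adjusted p = 0.143 and 0.0839), and that of PTGES was also lost without CsiRNA replicate 2 (adjusted p = 0.16) or NEAT1siRNA replicate 3 (adjusted p = 0.0636).

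**Figure D5:**
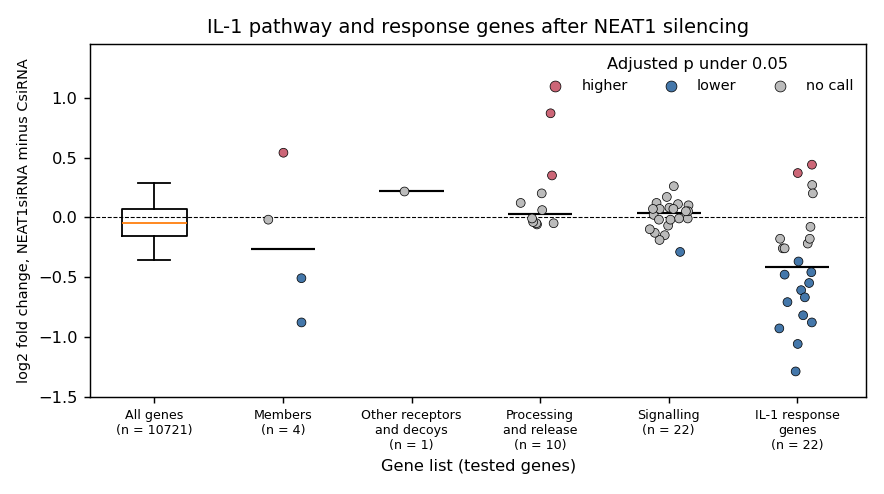
Log2 fold change, NEAT1siRNA over CsiRNA, of the tested genes of each list, 1 point per gene, colored by call, with a bar at the list's median. The box at the left shows all 10721 tested genes, with quartiles and with whiskers at the 5th and 95th percentiles. Signalling genes lie around 0 with a median of 0.03, and IL-1 response genes have a median of -0.41.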

How the data were processed

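Libraries were made with a stranded mRNA kit from total RNA. The submitters' processing notes name STAR, DESeq2 and GRCh38, and the counting tool and TPM formula are not given in the sources used here. The authors deposited TPM per gene and library, and a comparison table with a mean normalized count per gene (a signal averaged over the 6 libraries). That table's fold changes, standard errors, test statistics and p-values, the authors' own comparison, were not used. Reads were recovered by joining both tables, since TPM keep no depth. Values were whole within 0.05 for 99.8% of entries of genes with a mean count under 5, and for 14.8% at 500 or more, so large read numbers are approximate.

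Groups were compared with limma 3.58.1 (lmFit, eBayes with trend, R 4.3.3) on log2(TPM + 1), two-sided, without covariates. Calls used an adjusted p under 0.05. Standard errors and intervals are those of the moderated fit. Other steps used Python 3.11.15. Replicates of a group differed by more than sampling noise, so none was counted as a repeat deposit. The fit was tested on simulated data without a trend on GC content, so that test does not cover the trend seen in these libraries. Members and lists were chosen with earlier results of these data known. Genes named are all members, NEAT1, up to 6 called genes of each list with the lowest adjusted p (4 for response genes), and the 3 genes most correlated with the most abundant ligand and receptor. Marker genes, and pathway genes given without a call, are named as background, and the result of 1 marker is not reported here. Alternatives were other pseudocounts, filters and scalings, voom, a GC and length trend, a replicate block and left-out libraries. The voom fits of IL1B and MAP2K6 without single libraries were chosen after seeing the data.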

Additional observations from a re-analysis of the deposited data

How the results depend on the processing

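IL1R1 and IL1RAP kept their direction and call in 17 of 17 other settings, with adjusted p of at most 0.0237 and 0.0207. IRAK2 kept both in 15 of 16, losing the call without a filter, and it could not be tested at a mean TPM of at least 5. IRAK1 was never called, and its sign turned with quantile normalization (0.01), median centring (0.04), TPM rescaled without the short noncoding RNAs (0.01), voom (0.03), and without CsiRNA replicate 1 (0.03) or NEAT1siRNA replicate 3 (0.05) in a range of -0.07 to 0.05 over left-out libraries, with the cause not tested. The number of genes called, 1498, became 505 without a filter, 2769 with voom, 2387 with the GC and length trend removed, and 759 to 2083 with 1 library left out, where 759 was without CsiRNA replicate 1 and 838 without NEAT1siRNA replicate 3. Pathway calls, 3, became 6 with quantile normalization, 6 with median centring, 5 with rescaled TPM, 8 with voom, 5 with the GC and length trend removed, and 1 to 4 with 1 library left out (1 without CsiRNA replicate 3). Leaving out 1 library gave 12 to 17 response genes and left the members at 3. The cause of these shifts was not tested. Without a filter more genes were tested, and the part of this in the lower count was not tested either.

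Deviations of same-numbered libraries correlated at r = -0.03, 0.25 and -0.11, and those of the other pairs at -0.40 to 0.40. These values do not show that the replicate numbers pair the libraries, and they cannot exclude it. With the replicate block 1640 genes, 3 members, 3 pathway genes and 15 response genes were called, and with the GC and length trend removed as well as the block, 2627 genes and 5 pathway genes.

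Library deviations followed GC content, with Spearman's rho over genes from -0.71 (NEAT1siRNA replicate 2) to 0.66 (NEAT1siRNA replicate 1). Removing this trend left IL1R1 at 0.56, IL1RAP at -0.89 and IRAK2 at -0.47. Depth limits the near-silent ligands and IL1B.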

Other observations

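MAP2K6, a second kinase that activates p38, fell under the TPM filter and was picked out after its values were seen. Its level was 0.15, 0.091 and 0.119 TPM with CsiRNA and 0.524, 0.564 and 0.427 TPM with NEAT1siRNA, without overlap. By voom on recovered reads the log2 fold change was 2.13 ± 0.18 (SE, adjusted p = 6.77e-07), and it ran from 1.97 to 2.26 when each library was left out in turn. On log2(TPM + 1) without a filter it was 0.43 (limma adjusted p = 0.0116). Its relative MAP2K3 was the only signalling gene called lower in the main comparison. UBE2V1, another signalling gene under the filter and also picked out after its values were seen, went the other way, without overlap. The level of UBE2V1 was 1.02, 0.798 and 0.908 TPM with CsiRNA and 0.654, 0.538 and 0.447 TPM with NEAT1siRNA.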
